A study of Mus musculus with 13 samples.

Results

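The genes of the unfolded protein response and the integrated stress response were followed in mouse brain as a set of 38, matched by gene symbol in the deposited expression table. Averaged over the libraries, 37 of them reached 1 FPKM and were tested, among 13905 genes tested and 37636 gene IDs in the table. FPKM is the count of sequenced fragments of a gene divided by the gene's length and by the mapped total of the library. The listed gene below that level was Trib3, a pseudokinase gene that ATF4 induces, with a mean of 0.285 FPKM.

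All libraries came from brain tissue of male Balb/c mice aged 6 to 8 weeks, and the brain region is not named. The 4 Con libraries were from the normal condition without 6-OHG. The 5 Mod libraries were from mice kept at 8000 m for 24 h without 6-OHG. The 4 libraries of the 6-OHG group were from mice kept at 8000 m for 24 h and given 6-OHG, a compound named by this code only and at a dose the labels do not give. No group received 6-OHG without the altitude exposure, so 6-OHG was compared only among exposed mice. The labels number the libraries of a group but do not say that each is a separate animal, so the p-values measure the spread between these libraries, which may be technical.

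When unfolded proteins build up in the endoplasmic reticulum (ER), the sensors IRE1 (Ern1), ATF6 and PERK (Eif2ak3) are activated. IRE1 splices the mRNA of the transcription factor XBP1 and ATF6 is cut to release a transcription factor, and these factors raise ER chaperones and the machinery that removes misfolded proteins. PERK and the other eIF2 kinases phosphorylate eIF2 alpha, which lowers most protein synthesis but raises that of ATF4, whose targets include CHOP (Ddit3), GADD34 (Ppp1r15a) and genes of amino acid supply. FPKM per gene does not separate the spliced form of Xbp1 and does not measure translation, cleavage or phosphorylation.

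Neuronal markers were abundant in every library, with a summed level of 812 to 1185 FPKM over 8 genes. The libraries differed in other tissue markers. Choroid plexus markers summed to 281 to 697 FPKM in Con, 47.8 to 253 in Mod and 3.74 to 362 in the 6-OHG group, and markers of the striatum ranged from 70.4 to 627 FPKM over all libraries. Liver markers summed to 46.7 to 60.9 FPKM in Con and to 43.5 FPKM in Mod 3, against 0.408 to 1.41 FPKM in the other Mod libraries and 0.597 to 1.11 FPKM in the 6-OHG group. Pituitary markers were at 24.5 FPKM in Con 4 and at most 2.75 FPKM in any other library. Of 7 endothelial markers, 4 rose and 2 fell in Mod, with a median difference of 0.68. Microglial markers summed to 66.2 to 80.7 FPKM in Con, 54.0 to 66.9 in Mod and 43.9 to 63.2 in the 6-OHG group, and 5 of the 7 fell in 6-OHG against Con. Blood markers summed to 108 to 357 FPKM in Con, 109 to 520 in Mod and 40.9 to 176 in the 6-OHG group, and oligodendrocyte markers to 1133 to 1547, 770 to 1834 and 630 to 1150 FPKM. Con 4 and 6-OHG 2 were the libraries least like their own groups, with mean correlations over genes of 0.969 and 0.963 against 0.974 to 0.983 for the others.

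After the altitude exposure, the ER chaperone mRNAs among the listed genes were mostly lower, and a few listed stress-response mRNAs, led by Ppp1r15a, were higher. In Mod against Con, 21 of the 37 genes tested passed an adjusted p of 0.05 in limma (56.8%), beside 23.8% of all genes tested. Of these, 7 rose, where 14% of all genes tested did, and 14 fell, where 9.81% did. The median difference of the 37 genes was -0.14 on the log2(FPKM + 1) scale, beside 0.01 for all genes tested. The Mod and Con libraries did not overlap for 7 genes that were higher in Mod and 12 that were lower, beside 13.5% and 8.87% of all genes tested, or 22.4% in either direction. In a bulk sample a lower level can come from fewer cells of a type or from less RNA per cell, and the 2 cannot be told apart.

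Most of the falls were in chaperone genes. Of 15 ER chaperones and folding enzymes, 10 fell and 2 rose, with a median of -0.24. Of 5 genes of ER-associated degradation, 1 rose and 1 fell, and of 4 ER stress sensors with XBP1, 1 rose and 2 fell. Of 6 genes for eIF2 kinases, eIF2 alpha and its phosphatase subunit CReP, 1 fell and none rose. Of 7 tested genes of ATF4 and its targets, 3 rose and none fell, with a median of 0.16. Of all genes tested, 14% rose and 9.81% fell, 23.8% in either direction. Beside that, 80% of the chaperone role was called and 16.7% of the eIF2 role, and all roles but the chaperones hold few genes. No test was made of the difference between roles.

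**Figure D1:**
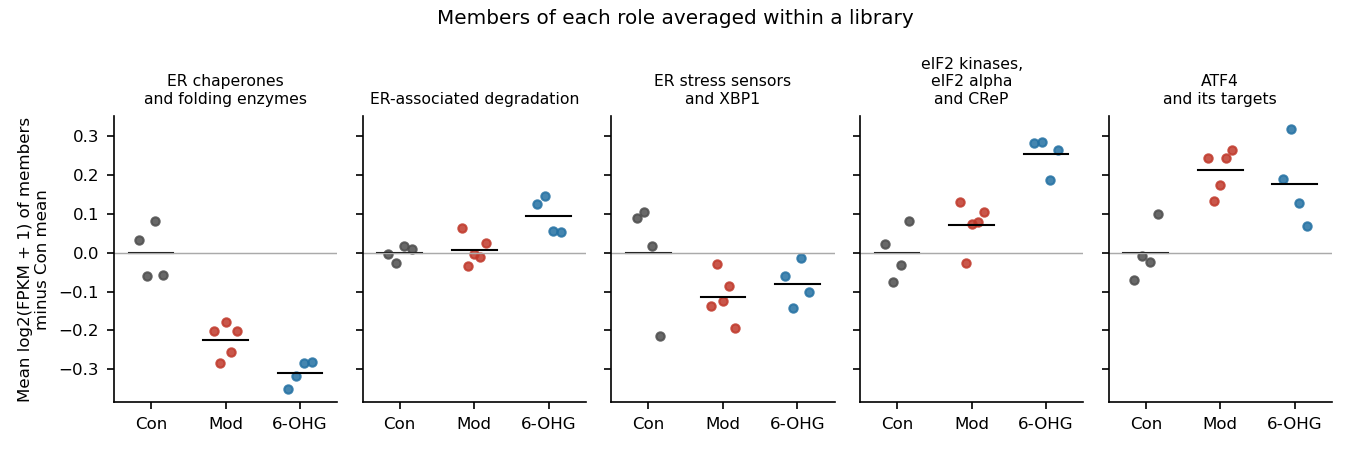
Mean log2(FPKM + 1) of the tested members of each role in each library, minus the mean of the Con libraries (vertical axis), by group (horizontal axis); points are libraries and the horizontal bars are group means. The chaperone means of the Mod libraries lie between -0.28 and -0.18 and those of the 6-OHG libraries between -0.35 and -0.28, below the lowest Con library at -0.06, while ATF4 and its targets lie at 0.13 to 0.26 in Mod and at 0.07 to 0.32 in the 6-OHG group.

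The averages by library show how evenly each role moved. All 5 Mod libraries had chaperone means below all 4 Con libraries, as did all 4 libraries of the 6-OHG group. For ATF4 and its targets the Mod libraries lay at 0.13 to 0.26 above the Con mean, against -0.07 to 0.10 for the Con libraries themselves. The 6-OHG libraries lay at 0.07 to 0.32 for this role, and 6-OHG 4 was below Con 4, so the 6-OHG group overlapped Con. For the sensors the groups overlapped, since Con 4 was the lowest library at -0.21.

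Against the same Con libraries, exposed mice given 6-OHG showed changes in 25 of the 37 genes (67.6%), beside 30.7% of all genes tested. Here 10 rose, beside 16.3% of all genes tested, and 15 fell, beside 14.4%. The 2 groups did not overlap for 10 genes that were higher with 6-OHG and 12 that were lower, beside 15.6% and 12.5% of all genes tested, or 28.1% in either direction. Among exposed mice, 6-OHG against Mod, 7 of 37 genes were called (18.9%), beside 15.3% of all genes tested, so the share was near the background. There 5 rose, beside 6.98% of all genes tested, and 2 fell, beside 8.35%. No overlap was seen for 3 genes higher and 4 lower with 6-OHG than in Mod, beside 7.6% and 8.34% of all genes tested, or 15.9% in either direction. The comparisons share libraries and are not independent of one another. Libraries can differ in how level depends on a gene's exon length and GC content. When that trend was taken out, 6-OHG against Mod kept 1 member call, the rise of Edem1, while 20 members were called between Mod and Con, and 24 between 6-OHG and Con. Of all 13905 genes tested, 975 were then called in 6-OHG against Mod, 3487 between Mod and Con, and 4038 between 6-OHG and Con. The member calls were not all the same as before. Between Mod and Con, Edem1 (adjusted p = 0.0608) and Ddit3 (adjusted p = 0.0526) lost the call and Eif2ak4 (adjusted p = 0.0355) gained it. Between 6-OHG and Con, Sdf2l1 (adjusted p = 0.128) and Eif2ak1 (adjusted p = 0.114) lost it and P4hb (adjusted p = 0.031) gained it.

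**Figure D2:**
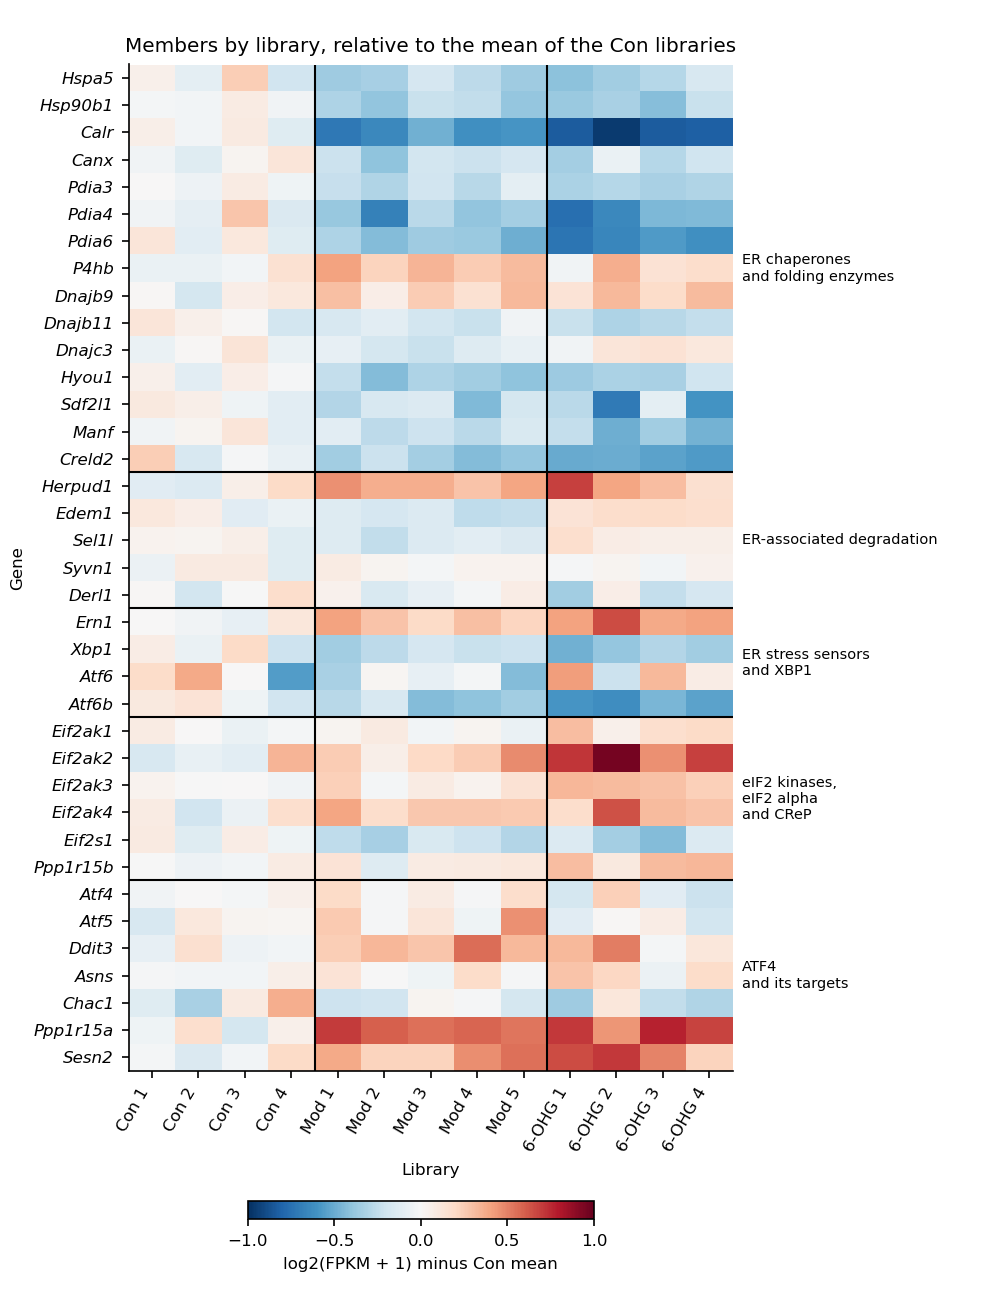
Level of each tested member (rows, grouped by role) in each of the 13 libraries (columns), as log2(FPKM + 1) minus the mean of the Con libraries (colour scale from -1.0 to 1.0). Calr, Pdia4, Pdia6, Creld2 and Atf6b are blue in every Mod and 6-OHG library, and Ppp1r15a is red in all of them.

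Calr (ENSMUSG00000003814; GRCm38 chr8:84841850-84846934) had the largest fall among the 37 genes in Mod against Con. It encodes calreticulin, a lectin chaperone that binds calcium in the ER. Its level was 115, 108, 118 and 101 FPKM in the Con libraries, 67.1, 70.2, 79.1, 71.7 and 73.0 FPKM in Mod, and 61.5, 56.4, 61.5 and 62.4 FPKM in the 6-OHG group. No Mod library reached any Con library, and no 6-OHG library reached any Mod library. The Mod mean of 72.2 ± 4.41 FPKM (SD, n = 5) was 34.7% below the Con mean of 111 ± 7.35 FPKM (SD, n = 4), a log2 difference of -0.61 (SE 0.06, limma adjusted p = 3.05e-05). With 6-OHG the mean was 60.5 ± 2.72 FPKM (SD, n = 4), a further log2 difference of -0.25 from Mod (SE 0.06, limma adjusted p = 0.0168). That second fall did not pass the threshold once the exon length and GC trend was removed (-0.19, adjusted p = 0.116). It was also not called after rescaling to equal sums, after quantile normalization or with the replicate number fitted as a block.

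Hspa5 (ENSMUSG00000026864; GRCm38 chr2:34771970-34777547) encodes BiP, the main ER chaperone of the Hsp70 family, which also holds the sensors inactive. Its level was 61.2, 55.3, 70.2 and 51.7 FPKM in Con, 46.0, 46.7, 52.5, 49.2 and 46.0 FPKM in Mod, and 44.4, 46.3, 48.3 and 52.7 FPKM in the 6-OHG group. Mod 3 lay above the lowest Con library, Con 4, so the groups overlapped. The log2 difference of Mod from Con was -0.30 (SE 0.08, limma adjusted p = 0.0224), and it missed the threshold without Con 3 (adjusted p = 0.0707) and without Con 1 (adjusted p = 0.061). Exposed mice with and without 6-OHG had nearly the same mean, 47.9 ± 3.59 FPKM (SD, n = 4) and 48.1 ± 2.80 FPKM (SD, n = 5), with a 95% confidence interval of the difference of -0.19 to 0.18 on the log2 scale. Hsp90b1, which encodes the ER chaperone GRP94, was at 74.8 to 81.5 FPKM in Con and 58.1 to 65.7 FPKM in Mod with no overlap, a difference of -0.31 (adjusted p = 0.00237).

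The protein disulfide isomerases did not move together. Pdia6 was at 28.7, 24.5, 28.4 and 24.1 FPKM in Con, 21.1, 19.2, 20.4, 20.1 and 18.5 FPKM in Mod, and 15.5, 16.4, 17.5 and 16.9 FPKM in the 6-OHG group. The 3 groups were ordered with no overlap, and both steps passed the test, at -0.39 for Mod against Con (adjusted p = 0.00118) and -0.25 for 6-OHG against Mod (adjusted p = 0.0231). The second step missed the threshold when 6-OHG 1 was left out (adjusted p = 0.0675) and after removal of the length and GC trend (adjusted p = 0.0546). It was also not called after rescaling to equal sums or with the replicate number fitted as a block.

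Pdia4 fell by 0.41 in Mod (adjusted p = 0.0124), from 12.2 to 16.7 FPKM in Con to 8.15 to 11.1 FPKM in Mod. Pdia3, the isomerase that works with calreticulin and calnexin, fell by 0.22 (adjusted p = 0.00821), and Canx, which encodes calnexin, fell by 0.24 (adjusted p = 0.0296). The Canx call was lost in 4 of 13 fits that left out 1 library, among them Con 3 (adjusted p = 0.0761). P4hb, the isomerase that is also a subunit of collagen prolyl hydroxylase, went the other way. Its level was 32.0, 31.9, 32.8 and 37.3 FPKM in Con and 44.5, 39.2, 42.6, 40.0 and 41.9 FPKM in Mod, all Mod libraries above all Con libraries. That rise of 0.31 (SE 0.08, adjusted p = 0.0120) held in every fit without 1 library but not after rescaling the libraries to equal sums.

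The remaining chaperone genes mostly encode helpers of BiP or secreted factors. Hyou1, the nucleotide exchange factor of BiP, was at 13.4 to 15.2 FPKM in Con and 10.4 to 12.1 FPKM in Mod, and fell by 0.35 (adjusted p = 0.00115). Creld2, a secreted ER stress protein, was at 9.45, 6.90, 7.77 and 7.40 FPKM in Con and at 5.96, 6.63, 5.96, 5.55 and 5.77 FPKM in Mod, a fall of 0.34 with no overlap (adjusted p = 0.00592). All 4 libraries of the 6-OHG group, at 4.95 to 5.27 FPKM, lay below the lowest Mod library for Creld2, but that difference was not called (adjusted p = 0.120). Manf, a secreted protective factor, fell by 0.20 (adjusted p = 0.0447), a call lost in 8 of 13 fits without 1 library, most clearly without Con 3 (adjusted p = 0.139).

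Dnajb9 encodes ERdj4, a BiP co-chaperone, and was the other member of this role to rise. It went from 15.7 ± 1.38 FPKM (SD, n = 4) in Con to 18.4 ± 1.42 FPKM (SD, n = 5) in Mod, with the lowest Mod library within the Con range. The difference of 0.22 (adjusted p = 0.0478) was just inside the threshold and was lost in 9 of 13 fits without 1 library, most clearly without Con 2 (adjusted p = 0.143), and after median-of-ratios or equal-sums scaling. Dnajc3, which encodes p58IPK, an ER co-chaperone, was not called in Mod against Con, although its Mod libraries, at 8.53 to 9.54 FPKM, were all below the Con libraries, at 9.58 to 11.1 FPKM. With 6-OHG it was at 9.80, 11.1, 11.3 and 10.9 FPKM, above every Mod library, a rise of 0.22 over Mod (adjusted p = 0.0250). The rise was lost in 4 of 13 fits without 1 library, most clearly without 6-OHG 3 (adjusted p = 0.0672), and after removal of the length and GC trend (adjusted p = 0.108). Dnajb11 (ERdj3) and Sdf2l1, its partner in a BiP complex, were not called in Mod with all libraries. Dnajb11 was called there in 3 of 26 alternative settings, among them without Con 4 (adjusted p = 0.0199), and Sdf2l1 in 1 of 25 (adjusted p = 0.0453). Both fell in 6-OHG against Con, by 0.26 (adjusted p = 0.0113) and 0.42 (adjusted p = 0.0197).

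In 6-OHG against Con, 12 of the 15 chaperone genes fell and Dnajb9 rose, with a median of -0.30, beside 14.4% of all genes tested that fell and 16.3% that rose. Calr was 45.4% below Con, Pdia6 37.3%, Pdia4 35.4% and Creld2 34.7%, and none of these 4 overlapped the Con libraries. The number of chaperone genes that fell in Mod against Con was 9 without Mod 3, the Mod library with liver markers, and 11 without Con 4 and 6-OHG 2. Every Con library also held liver markers, so the fit without Mod 3 cannot separate liver RNA from the exposure. Mod 3 was the highest of the 5 Mod libraries for 4 of the 10 chaperones that fell. Its mean over the 15 chaperone genes was 0.18 log2 units below the Con mean (-0.18). The other Mod libraries were at -0.28 to -0.20, and the lowest Con library was at -0.06. Without Con 1 or without Con 3, 7 chaperone genes fell. The part of RNA from liver, choroid plexus, pituitary, endothelium, microglia, blood or oligodendrocytes in the members' levels was not tested.

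**Figure D3:**
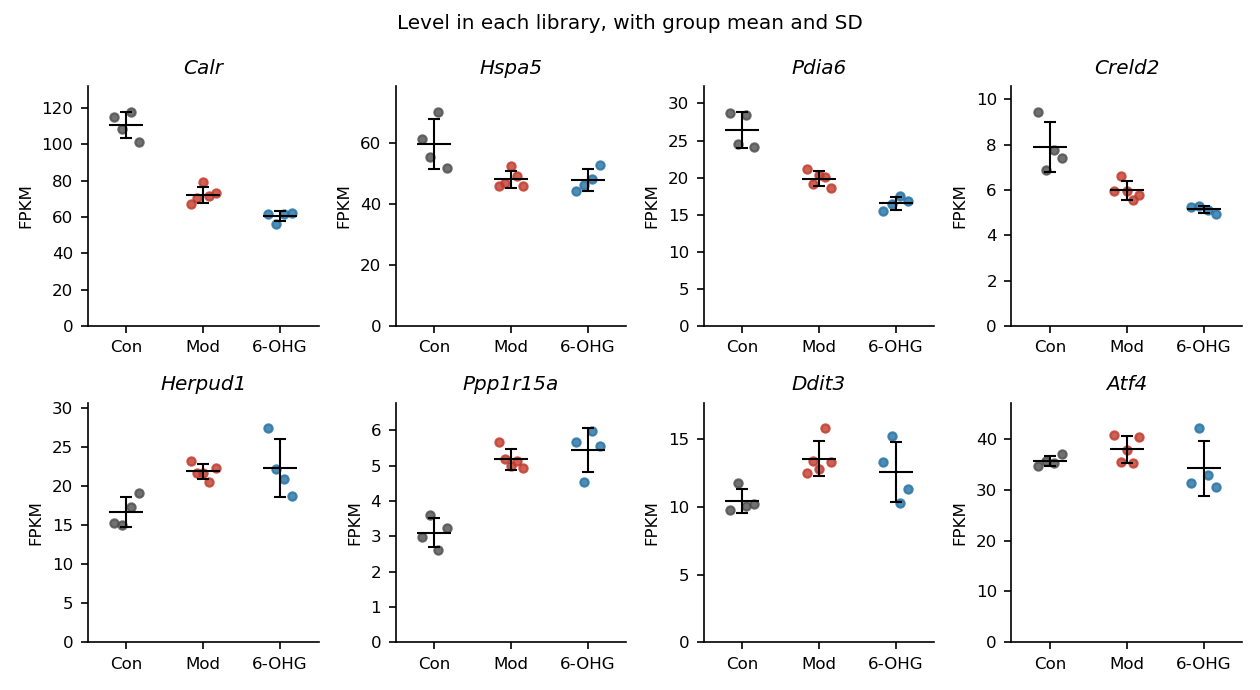
FPKM (vertical axis, from 0) of 8 members in each library by group (horizontal axis); points are libraries, and bars show the group mean and SD. Calr and Pdia6 step down from Con to Mod to 6-OHG, Herpud1 and Ppp1r15a are higher in both exposed groups, and Atf4 overlaps in all 3 groups.

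Promoters of chaperone genes are shown because several of them hold the letters known as the ER stress element, through which ATF6 and XBP1 raise chaperone genes. This element is CCAAT, any 9 bases, then CCACG, searched on both strands. Sequences are from RefSeq (GRCm38.p6), as windows of 250 bases before to 50 bases after a gene's start. A window was given for 33 of the 38 members, while Hyou1, Manf, Derl1, Atf6 and Ppp1r15b had none. The element was in the windows of 7 of 13 chaperone genes (53.8%) and of Syvn1, beside 37 of 27025 genes with a window (0.137%). It was chosen as one known to act on chaperone genes, so its higher share among them is not a finding of these data. The matched stretches follow, read along the strand of the element, with the fixed letters in capitals.
Hspa5: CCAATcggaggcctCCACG
Hsp90b1, first: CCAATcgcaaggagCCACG
Hsp90b1, second: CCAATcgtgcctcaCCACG
Calr: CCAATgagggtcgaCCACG
Canx: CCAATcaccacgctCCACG
Pdia6: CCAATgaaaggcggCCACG
Dnajc3: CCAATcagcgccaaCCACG
Creld2: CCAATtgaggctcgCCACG
Syvn1: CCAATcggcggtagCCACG
Of the 8 member genes with the element, 7 chaperone genes and Syvn1, 6 fell in Mod against Con and none rose. Dnajc3 and Syvn1 were not called. Of the 6 chaperone genes whose windows lacked it, 2 fell, 2 rose and 2 were not called. Among all genes tested, 9.81% fell and 14% rose. The difference between genes with and without the element was not tested. A match is a description of the letters only, and no binding was measured.

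For the main chaperone Hspa5 and for Calr, the 250 bases before the start are given with the element in capitals. The Hspa5 stretch is chr2:34771840-34772089 on the plus strand, and its element lies 65 to 47 bases before the RefSeq start, which is 120 bases inside the GENCODE gene. The Calr stretch is chr8:84846932-84847181 on the minus strand, with the element on the opposite strand to the gene, 162 to 144 bases before the start.
Hspa5: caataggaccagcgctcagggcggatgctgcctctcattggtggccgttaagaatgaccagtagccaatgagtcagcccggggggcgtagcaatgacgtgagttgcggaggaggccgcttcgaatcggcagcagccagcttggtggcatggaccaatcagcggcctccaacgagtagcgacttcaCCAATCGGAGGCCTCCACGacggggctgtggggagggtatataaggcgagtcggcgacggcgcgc
Calr: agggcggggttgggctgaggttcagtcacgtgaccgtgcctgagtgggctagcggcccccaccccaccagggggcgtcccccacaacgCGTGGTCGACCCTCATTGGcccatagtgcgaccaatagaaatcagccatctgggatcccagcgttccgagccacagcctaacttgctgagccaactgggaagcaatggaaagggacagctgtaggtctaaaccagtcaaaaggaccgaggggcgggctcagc

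Herpud1 (ENSMUSG00000031770; GRCm38 chr8:94386438-94395377) was higher in exposed mice, unlike most of the listed chaperone genes. It encodes an ER membrane protein that helps send misfolded proteins to the proteasome. Its level was 15.3, 15.0, 17.4 and 19.2 FPKM in Con, 23.2, 21.7, 21.7, 20.5 and 22.3 FPKM in Mod, and 27.4, 22.2, 20.9 and 18.7 FPKM in the 6-OHG group. All Mod libraries were above all Con libraries, while 6-OHG 4 fell within the Con range. The Mod mean was 30.8% above the Con mean, a log2 difference of 0.37 (SE 0.10, limma adjusted p = 0.0148), and every fit without 1 library kept the call. Exposed mice with 6-OHG were also above Con, by 0.39 (adjusted p = 0.0129). After rescaling to equal sums, most of the members that rose in Mod were no longer called, and the same held with the replicate number fitted as a block.

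Herpud1 is shown with its 250 bases before the start, chr8:94386179-94386428 on the plus strand, because it holds 2 elements at once. The 11 bases ATTGG, any 1 base, then CCACG are the ER stress element II, found in 0.0444% of genes with a window and, among members, in Herpud1 and Dnajb11. The 8 letters TGATGNAA are the C/EBP-ATF element that ATF4 binds with C/EBP partners, found in 4.51% of genes with a window, here on the opposite strand. Both are in capitals.
Herpud1: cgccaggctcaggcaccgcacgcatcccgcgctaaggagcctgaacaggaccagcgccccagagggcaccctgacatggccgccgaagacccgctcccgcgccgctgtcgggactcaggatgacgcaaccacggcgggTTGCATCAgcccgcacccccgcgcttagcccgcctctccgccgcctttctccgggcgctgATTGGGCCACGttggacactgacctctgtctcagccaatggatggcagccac

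Edem1 and Sel1l differed between the exposed groups. Edem1 recognises misfolded glycoproteins for degradation, and Sel1l is the scaffold of the HRD1 ubiquitin ligase encoded by Syvn1. Edem1 was at 3.21, 3.10, 2.62 and 2.73 FPKM in Con, 2.57, 2.48, 2.56, 2.28 and 2.32 FPKM in Mod, and 3.29, 3.41, 3.43 and 3.39 FPKM in the 6-OHG group. The Mod libraries were below all others and the 6-OHG libraries above all others. The fall in Mod was small, at -0.18 (adjusted p = 0.0398), and was lost in 7 of 13 fits without 1 library, most clearly without Con 1 (adjusted p = 0.125). The rise with 6-OHG over Mod was 0.35 (SE 0.06, adjusted p = 0.00304), and it held in all 13 fits without 1 library and after removal of the length and GC trend (0.27, adjusted p = 0.0236). It was the only member call of 6-OHG against Mod that did so. With the trend removed and the replicate number fitted as a block together, Edem1 was no longer called, nor was any other member.

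Sel1l was at 19.1 to 21.7 FPKM in Con, 17.4 to 19.3 FPKM in Mod and 21.8 to 23.5 FPKM in the 6-OHG group. Its rise of 0.24 with 6-OHG over Mod (adjusted p = 0.00893) kept the call without each library in turn but not after removal of the length and GC trend (adjusted p = 0.114). Syvn1, at 7.58 to 8.95 FPKM over all libraries, and Derl1, a channel component of the same pathway at 13.0 to 19.1 FPKM, were not called in any comparison of all libraries. Without 6-OHG 2, Derl1 was called in 6-OHG against Con (adjusted p = 0.0419), as lower.

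Ern1, which encodes the sensor IRE1 alpha, was low but higher in exposed mice. It was at 1.47, 1.41, 1.33 and 1.66 FPKM in Con, 2.25, 2.01, 1.81, 2.04 and 1.86 FPKM in Mod, and 2.26, 2.88, 2.2 and 2.26 FPKM in the 6-OHG group. No Con library reached a library of either exposed group. The difference was 0.28 in Mod (adjusted p = 0.0183), lost without Con 3 (adjusted p = 0.0592), and 0.46 in 6-OHG against Con (adjusted p = 0.00116).

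Xbp1, the target of IRE1, went the other way as total mRNA. It was at 18.3, 16.5, 19.96 and 14.9 FPKM in Con and 13.4, 14.3, 15.3, 14.7 and 14.9 FPKM in Mod, a fall of 0.24 with overlap at Con 4 (adjusted p = 0.0354). That call was lost in 6 of 13 fits without 1 library, most clearly without Con 3 (adjusted p = 0.116). In the 6-OHG group Xbp1 was at 12.1 to 13.9 FPKM, below every Con library, a difference from Con of -0.38 (adjusted p = 0.00381).

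The ATF6 genes also differed from each other. Atf6b, a paralog of Atf6, was at 17.5, 17.97, 15.8 and 14.1 FPKM in Con, 13.2, 14.5, 11.8, 12.1 and 12.5 FPKM in Mod, and 10.5, 10.2, 11.6 and 10.9 FPKM in the 6-OHG group. It fell by 0.32 in Mod (adjusted p = 0.00886), with Mod 2 above Con 4, and by 0.55 in 6-OHG against Con with no overlap (adjusted p = 3.94e-04). Atf6 itself had the widest Con spread of the sensors, at 9.70, 11.3, 8.45 and 5.40 FPKM, and its Mod libraries, at 5.97 to 8.58 FPKM, lay within that range. Its difference of -0.17 had a 95% confidence interval of -0.56 to 0.22 (adjusted p = 0.542), which includes changes of either sign.

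None of the 4 eIF2 kinase genes was called in Mod against Con, and all 4 rose in 6-OHG against Con, where 16.3% of all genes tested rose. In Mod against Con 14% rose. Eif2ak3 encodes PERK, the kinase of the ER. It was at 4.69, 4.53, 4.58 and 4.43 FPKM in Con, 5.57, 4.48, 4.87, 4.71 and 5.13 FPKM in Mod, and 5.98, 5.92, 5.81 and 5.57 FPKM in the 6-OHG group. Mod overlapped Con and was not called (adjusted p = 0.237). The 6-OHG libraries were above all Con libraries, a rise of 0.30 (adjusted p = 0.00273). The rise of 0.20 over Mod (adjusted p = 0.0305) was lost in 6 of 13 fits without 1 library, most clearly without 6-OHG 1 (adjusted p = 0.0757), and after removal of the length and GC trend (adjusted p = 0.0626).

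Eif2ak2 encodes PKR, the kinase activated by double-stranded RNA, and had the largest rise of the kinases. Its level was 1.31, 1.46, 1.40 and 2.26 FPKM in Con, 2.07, 1.68, 1.97, 2.08 and 2.58 FPKM in Mod, and 3.24, 4.01, 2.54 and 3.15 FPKM in the 6-OHG group. Con 4, the Con library with pituitary markers, stood above the other Con libraries and within the Mod range. Mod against Con was not called (adjusted p = 0.168) but was without Con 4 (adjusted p = 0.0345). The 6-OHG libraries were above all Con libraries, and 6-OHG 3 lay just below Mod 5. The 6-OHG mean was 2.01 times the Con mean, a log2 difference of 0.70 (SE 0.13, adjusted p = 0.00161), and lay 0.46 above Mod (adjusted p = 0.0253). The difference from Mod was lost in 5 of 13 fits without 1 library, most clearly without 6-OHG 2 (adjusted p = 0.0594), and after removal of the length and GC trend (adjusted p = 0.0582).

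Eif2ak4, the amino acid sensor GCN2, was at 2.80 to 3.87 FPKM in Con and 3.89 to 4.69 FPKM in Mod with no overlap, but was not called (adjusted p = 0.0559), although 7 of 26 alternative settings called it. In 6-OHG against Con it rose by 0.35 (adjusted p = 0.0192), a call lost without Con 2 (adjusted p = 0.0580). Eif2ak1, the heme-regulated kinase HRI, was at 10.6 to 11.9 FPKM in Con, 10.6 to 12.0 FPKM in Mod and 11.6 to 14.1 FPKM in the 6-OHG group. Its rise of 0.18 over Con (adjusted p = 0.0399) was lost in 9 of 13 fits without 1 library, most clearly without 6-OHG 1 (adjusted p = 0.117).

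The substrate of these kinases, eIF2 alpha, is encoded by Eif2s1, which fell. It was at 7.57, 6.38, 7.49 and 6.83 FPKM in Con, 5.74, 5.41, 6.25, 5.97 and 5.59 FPKM in Mod, and 6.31, 5.34, 4.97 and 6.32 FPKM in the 6-OHG group. Every exposed library lay below every Con library, with differences from Con of -0.25 in Mod (adjusted p = 0.0282) and -0.26 with 6-OHG (adjusted p = 0.0223). These calls were lost in 5 and 4 of 13 fits without 1 library, in both cases most clearly without Con 1 (adjusted p = 0.0850 and 0.0645). Ppp1r15b encodes CReP, the subunit that directs constant dephosphorylation of eIF2 alpha. It was at 8.92 to 9.91 FPKM in Con and 8.42 to 10.3 FPKM in Mod, and it rose to 10.0 to 11.9 FPKM with 6-OHG, by 0.26 over Con (adjusted p = 0.0146).

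Ppp1r15a (ENSMUSG00000040435; GRCm38 chr7:45522916-45526268) had the largest rise among the 37 genes in Mod against Con. It encodes GADD34, the inducible subunit that directs dephosphorylation of eIF2 alpha, and is a target of ATF4. Its level was 2.97, 3.60, 2.63 and 3.24 FPKM in Con, 4.93 to 5.66 FPKM over the 5 Mod libraries, and 5.68, 4.55, 5.97 and 5.55 FPKM in the 6-OHG group. Every exposed library was above every Con library. The Mod mean of 5.18 ± 0.288 FPKM (SD, n = 5) was 66.6% above the Con mean of 3.11 ± 0.411 FPKM (SD, n = 4), a log2 difference of 0.59 (SE 0.08, limma adjusted p = 2.96e-04). The call held in all 26 alternative settings. With 6-OHG the mean was 5.44 ± 0.621 FPKM (SD, n = 4), and the 95% confidence interval of the difference from Mod was -0.12 to 0.23.

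Ddit3, which encodes the transcription factor CHOP, was at 9.76, 11.8, 10.0 and 10.2 FPKM in Con, 12.5, 13.4, 12.8, 15.8 and 13.3 FPKM in Mod, and 13.3, 15.3, 10.3 and 11.3 FPKM in the 6-OHG group. Mod lay wholly above Con, while the 6-OHG libraries spanned the Con and Mod levels. The rise in Mod was 0.35 (SE 0.10, adjusted p = 0.0258), lost without Con 1 (adjusted p = 0.0727) and also without Con 3 or Mod 4, and after removal of the length and GC trend (adjusted p = 0.0526). In 6-OHG against Con the gene was not called (adjusted p = 0.116), except without 6-OHG 3 (adjusted p = 0.0388).

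Sesn2 encodes sestrin 2, a stress-inducible inhibitor of mTORC1. It was at 2.77 to 3.74 FPKM in Con and at 3.84 to 5.09 FPKM in Mod, wholly above Con. Its rise was 0.37 in Mod (adjusted p = 0.0256), lost in 5 of 13 fits without 1 library, most clearly without Con 2 (adjusted p = 0.0752). In 6-OHG against Con the rise was 0.52 (adjusted p = 0.00451) and held in all 26 alternative settings.

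Atf4 mRNA itself was not called in any comparison of all libraries. It was at 34.6, 35.6, 35.2 and 36.9 FPKM in Con, 40.8, 35.4, 37.8, 35.3 and 40.3 FPKM in Mod, and 31.3, 42.0, 32.8 and 30.4 FPKM in the 6-OHG group. The groups overlapped, and the difference of Mod from Con was 0.09 with a 95% confidence interval of -0.10 to 0.27 (adjusted p = 0.501). In the 6-OHG group 3 libraries were below all Con libraries and 6-OHG 2 was above every other library. Without 6-OHG 2, the difference of the 6-OHG group from Mod was called, as lower (adjusted p = 0.0157).

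The other genes of this role were not called in Mod against Con. Asns, asparagine synthetase, was at 25.6 to 27.3 FPKM in Con and 25.3 to 29.8 FPKM in Mod, a difference of 0.05 (95% confidence interval -0.11 to 0.21, adjusted p = 0.662) whose sign turned after rescaling to equal sums. Chac1, which degrades glutathione, was at 3.15, 2.61, 3.80 and 4.81 FPKM in Con and 2.92, 2.95, 3.60, 3.48 and 3.00 FPKM in Mod, a difference of -0.11 (95% confidence interval -0.40 to 0.17, adjusted p = 0.575) whose sign turned without Con 4. Atf5, a transcription factor close to ATF4, differed by 0.16 (adjusted p = 0.288), with Mod libraries at 6.42 to 9.51 FPKM around the Con range of 5.86 to 7.24 FPKM. Trib3, below the filter and not tested, was listed at 0.210 to 0.278 FPKM in Con, 0.322 to 0.49 FPKM in Mod and 0.0255 to 0.417 FPKM in the 6-OHG group. Of the 7 tested genes of this role, 2 were called in 6-OHG against Con and none by limma in 6-OHG against Mod, beside 30.7% and 15.3% of all genes tested, and in the latter all 7 confidence intervals included 0.

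Of the 8 genes of this role, each with a window, 3 held the C/EBP-ATF element TGATGNAA on either strand, and none held the ER stress element. The matched stretches of these 3 are given here. Herpud1, a gene of another role, also holds the C/EBP-ATF element and rose in Mod.
Asns: TGATGaAA
Chac1: TGATGcAA
Trib3: TGATGtAA
Asns and Chac1 were not called and Trib3 was not tested, while the windows of Ppp1r15a, Ddit3 and Sesn2, which rose in Mod, held no match. The XBP1 and ATF6 element TGACGTGG was in 0.714% of genes with a window and in no member's window. Absence of a match says only that these letters are not in this window.

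**Figure D4:**
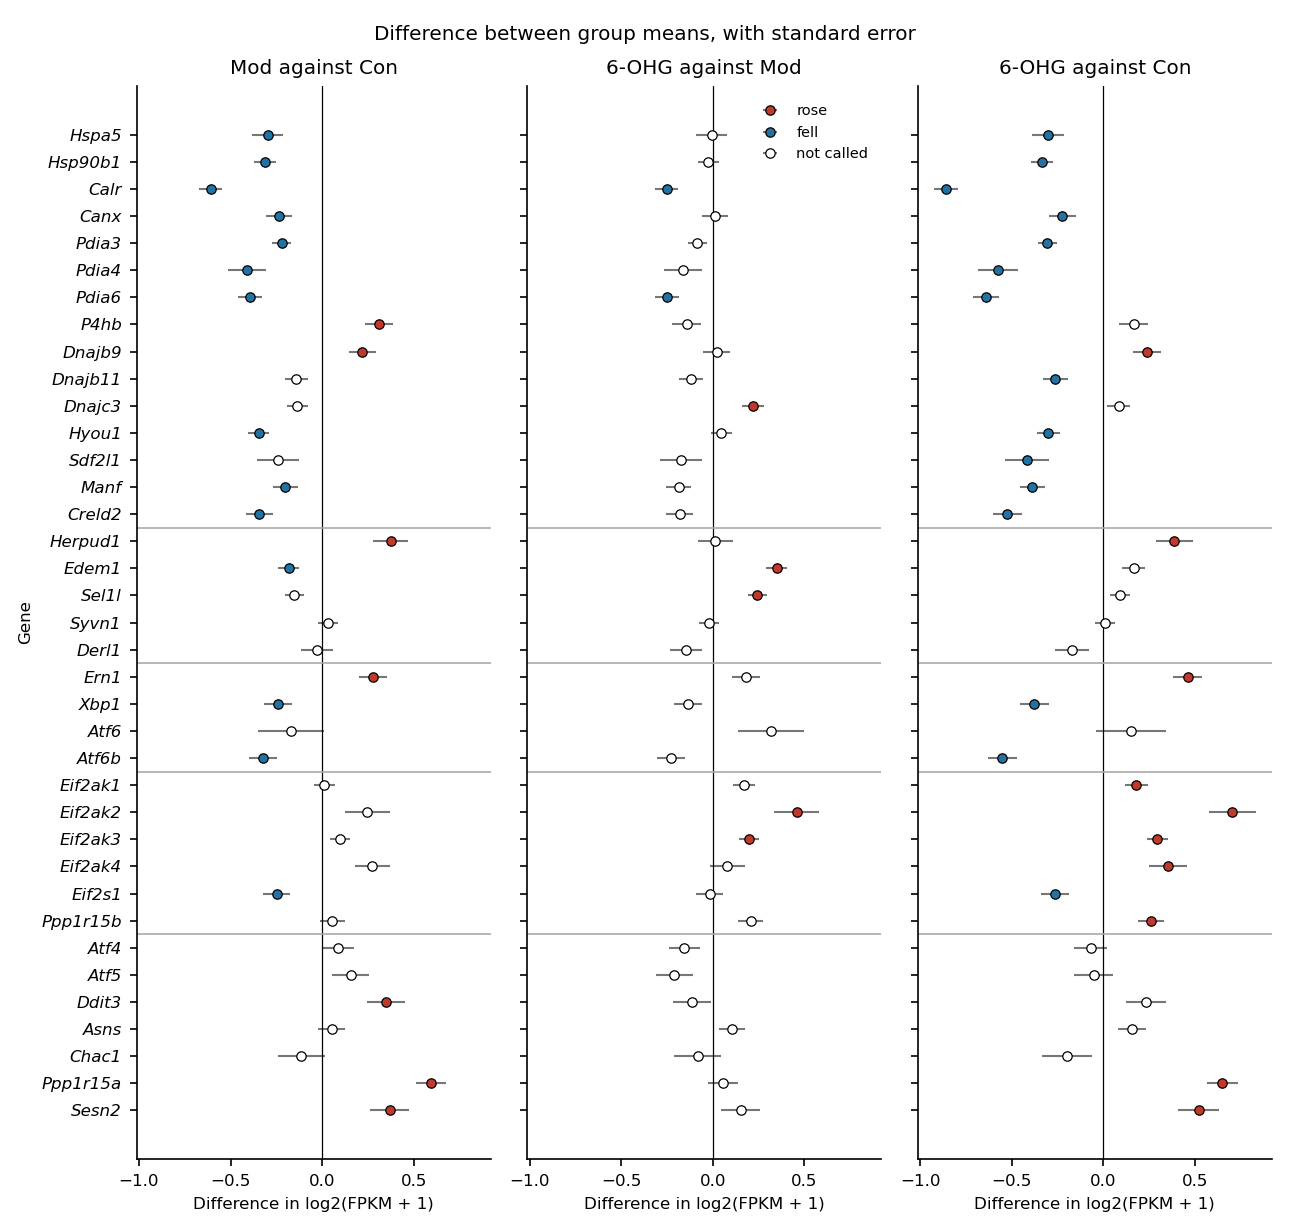
Difference in log2(FPKM + 1) between group means (horizontal axis) for each tested member (rows, roles separated by grey lines) in the 3 comparisons, with bars of 1 standard error; red points rose, blue points fell and white points were not called. Calr lies at -0.61 in the left panel and -0.86 in the right one, and Ppp1r15a at 0.59 and 0.65.

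A wider list of 153 genes of the same pathways, none of them members, gave 139 tested genes. In Mod against Con, 23 rose and 9 fell (23.0% called, beside 23.8% of all genes tested), in 6-OHG against Mod 7 rose and 15 fell (15.8%, beside 15.3%), and in 6-OHG against Con 22 rose and 18 fell (28.8%, beside 30.7%). The list as a whole was thus called about as often as all genes tested. With the length and GC trend removed, 2 rose and 4 fell in 6-OHG against Mod.

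Of 22 tested folding enzymes outside the member list, 4 rose and 3 fell in Mod against Con (31.8% called, beside 23.8% of all genes tested). Their median difference was -0.001, beside -0.24 for the 15 chaperones and folding enzymes of the member list, so the fall was not seen across both lists. Dnajc10, an ER reductase, rose by 0.37 (adjusted p = 4.32e-04), and Ppib, the ER cyclophilin, rose by 0.31 (adjusted p = 0.00408). Fkbp2, another ER prolyl isomerase, fell by 0.32 (adjusted p = 0.0162). In 6-OHG against Mod none of the 22 rose and 5 fell (22.7% called, beside 15.3% of all genes tested). Among them were Fkbp2 by 0.34 (adjusted p = 0.0183), Erp29, a chaperone of secreted proteins, by 0.31 (adjusted p = 0.00891) and Ppib by 0.24 (adjusted p = 0.0271). After removal of the length and GC trend 2 of the 22 fell. Erp29 was then still called (-0.43, adjusted p = 0.00442), while Fkbp2 (-0.13, adjusted p = 0.383) and Ppib (-0.19, adjusted p = 0.0979) were not.

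Of 19 further tested genes of ER-associated degradation, 3 rose in Mod and none fell (15.8% called, beside 23.8% of all genes tested). Ufd1, a partner of the p97 segregase, went from 14.3 FPKM in Con to 21.2 FPKM in Mod, a rise of 0.54 (adjusted p = 2.71e-04). Selenos, which anchors p97 at the ER membrane, rose by 0.41 (adjusted p = 0.00230), and the lectin Os9 by 0.21 (adjusted p = 0.0173). Edem3, a relative of Edem1, rose by 0.32 in 6-OHG against Mod (adjusted p = 0.00348).

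Of 24 genes of ER translocation and glycosylation, 3 rose and 1 fell in Mod (16.7% called, beside 23.8% of all genes tested), led by the translocon-associated subunit Ssr3 at 0.42 (adjusted p = 2.04e-04). In 6-OHG against Mod 2 rose and 5 fell (29.2% called, beside 15.3% of all genes tested). Among those that fell were the translocon subunits Sec61b by 0.39 (adjusted p = 0.0301) and Sec61g by 0.35 (adjusted p = 0.0416). With the length and GC trend removed none of the 24 rose and 2 fell, and neither Sec61b (-0.17, adjusted p = 0.329) nor Sec61g (-0.30, adjusted p = 0.0829) was called. Of 12 tested genes of ER stress signalling, 1 rose and 2 fell in Mod (25% called, beside 23.8% of all genes tested). Tmbim6, which encodes BAX inhibitor 1, fell by 0.24 (adjusted p = 0.0413). In 6-OHG against Mod, Bloc1s1, an mRNA that IRE1 is known to cut, fell by 0.59 (adjusted p = 0.00537). That call was lost with the trend removed (-0.36, adjusted p = 0.0555), and no gene of ER stress signalling was then called.

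Of 18 tested genes of amino acid synthesis and transport, 6 rose and 2 fell in Mod (44.4% called), beside 14% of all genes tested that rose and 9.81% that fell. Mthfd1l, the mitochondrial formate enzyme, went from 2.80 to 5.88 FPKM, a rise of 0.86 (adjusted p = 8.40e-05). Phgdh, the entry enzyme of serine synthesis, fell by 0.74 (adjusted p = 8.80e-04), from 11.3 to 6.38 FPKM, and Slc7a11, the cystine transporter, fell by 0.50 (adjusted p = 0.00260). Of 16 aminoacyl-tRNA synthetases and XPOT, 1 rose in Mod (6.25% called, beside 23.8% of all genes tested), Sars by 0.24 (adjusted p = 0.0144).

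Of 11 other tested stress genes linked to ATF4, 2 rose in Mod (18.2% called, beside 23.8% of all genes tested). They were the pro-apoptotic gene Bbc3 by 0.58 (adjusted p = 0.0335) and the autophagy receptor Sqstm1 by 0.25 (adjusted p = 0.0244). Of 17 genes of eIF2 and eIF2B, 3 rose and 1 fell (23.5% called, beside 23.8% of all genes tested), the fall being Ppp1cb, a catalytic subunit of protein phosphatase 1, by 0.29 (adjusted p = 0.00497).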

How the data were processed

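Brain RNA of 13 libraries (Con 4, Mod 5, 6-OHG 4) was extracted with Trizol and read on a NovaSeq, per the labels. The authors deposited FPKM per gene, with 1 column per library, and no counts were used, so depth is unknown and no counting interval is given. The submitters' processing notes name StringTie 2.1.6, HISAT2 2.2.1, featureCounts 1.5.0-p3, FastQC and cutadapt 1.9, as well as edgeR and DESeq2, and the builds GRCm38 and mm10. Which tool made the FPKM values, the annotation and the strand setting are not given in the sources used here, so reads of overlapping genes cannot be told apart. Column sums were 268208 to 312908 FPKM, and no 2 libraries were identical.

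Symbols and coordinates came from GENCODE M21 (GRCm38); 37499 of 37636 gene IDs matched. Genes whose mean FPKM was 1 or more were tested with limma 3.58.1 (R 4.3.3) on log2(FPKM + 1), with 1 mean per group over all 13 libraries and a mean-variance trend. A gene was called at a Benjamini-Hochberg adjusted p under 0.05 over all 13905 genes. Log2 differences with a pseudocount of 1 understate the change of low genes. The fit was tested on simulated data with independent normal noise and 1 spread per gene, as the fit itself assumes. The simulation held no differences in tissue content and no length and GC trend, so it cannot show how the fit behaves under these. The members, lists, motifs and tests were chosen with earlier results of these data known. Beside all 38 members, the text names up to 3 called genes per wider list and comparison with the largest change. Figures were drawn with matplotlib 3.10.9.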

Additional observations from a re-analysis of the deposited data

Results flagged for a closer look

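Among 114 groups of 4 or 5 libraries, 10 held a member value set apart from its group by a gap larger than Dixon's 95% limit, and chance alone gives about 1 in 20 groups. Low values in Mod 2 were Canx at 45.9 FPKM (others 52.5 to 54.2), Sel1l at 17.4 FPKM (others 18.8 to 19.3) and Ppp1r15b at 8.42 FPKM (others 9.88 to 10.3). In 6-OHG 2, one of the libraries least like its group, Calr was low at 56.4 FPKM (others 61.5 to 62.4), Ppp1r15b was low at 10.0 FPKM (others 11.8 to 11.9) and Ern1 was high at 2.88 FPKM (others 2.2 to 2.26). Eif2ak2 was high in Con 4 at 2.26 FPKM (others 1.31 to 1.46), and Hsp90b1 was high in Con 3 at 81.5 FPKM (others 74.8 to 75.8). Ddit3 was high in Mod 4 at 15.8 FPKM (others 12.5 to 13.4), and Sel1l was high in 6-OHG 1 at 23.5 FPKM (others 21.8 to 22.1).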

How the results depend on the processing

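Across 26 alternatives for each comparison, no called member changed sign. The calls held in all of them for 9 of 21 members in Mod against Con, 17 of 25 in 6-OHG against Con and 0 of 7 in 6-OHG against Mod. Of 58 differences that were not called, 24 changed sign and 18 were called in at least 1 alternative. Asns in Mod against Con turned to -0.0194 after rescaling to equal sums. Chac1 turned to 0.00697 without Con 4, alone or together with 6-OHG 2, and ranged from -0.221 to 0.00697 with each library left out in turn.

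In Mod against Con, 21 members were called, 7 higher and 14 lower. With no filter on low values these were 13, 4 and 9, and with a filter at 5 FPKM 4 rose and 2061 of all genes were called. After rescaling to equal sums 2 rose and 14 fell, and the share of all calls that were higher was 41.2% against 58.7% as reported. Ppp1r15a was among the 2 that rose, so most of the rises of Herpud1, Ern1, Ddit3 and Sesn2 were not called after this rescaling. With each library left out in turn, 12 to 24 members were called, 3 to 9 rose and 8 to 15 fell. The lowest counts were 12 without Con 1 and 12 without Con 3. Counts of members that rose were 4 without Con 1, 3 without Con 3 and 4 without Mod 4, and of members that fell 8 without Con 1, 9 without Con 3 and 9 without Mod 2.

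In 6-OHG against Mod, 7 members were called, 5 higher and 2 lower. With no filter 3 rose. After rescaling to equal sums none fell, and 77.6% of all calls were higher against 45.5% as reported; after quantile normalization 1 fell and the share was 57.5%. Removing the length and GC trend left 1 member that rose, 0 that fell and 975 of all genes. Without Con 4 and 6-OHG 2, 12 were called, 7 higher and 5 lower. With each library left out in turn, 3 to 8 were called, 2 to 5 rose, 1 to 3 fell and 1357 to 2345 of all genes were called. The lowest counts were 3 without Mod 3, 4 without Mod 2, and 1357 of all genes without 6-OHG 4. In 6-OHG against Con, the filter at 5 FPKM left 5 members that rose and 2663 of all genes. Where the cause of such a change is not set by the alternative itself, the cause was not tested.

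The labels do not say whether the replicate numbers pair the libraries. The deviations of same-numbered libraries correlated from -0.483 to 0.346 over genes. With 4 or 5 libraries per group, these values cannot exclude a pairing. With the number as a replicate block, which leaves out Mod 5 where it has no partner, Mod against Con gave 10 members called (2 rose, 8 fell) and 2039 of all genes. Ppp1r15a was again among the 2 that rose, so most of the rises of Herpud1, Ern1, Ddit3 and Sesn2 were not called with the block. In 6-OHG against Mod the block gave 2 members called (2 rose, 0 fell) and 846 of all genes. With the block and the length and GC trend removed, 2 members rose in Mod against Con and 2128 of all genes were called, and in 6-OHG against Mod 0 members and 64 of all genes were called.

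The FPKM values hold no depth, so low genes such as Ern1, Eif2ak2 and Trib3 have an unknown counting error.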
